A study of Mus musculus with 9 samples.

Results

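The glycolytic enzymes described here were 10 genes (Hk1, Pfkm, Aldoa, Aldoc, Gapdh, Pgk1, Eno2, Pkm, Ldha and Ldhb) out of 23997 gene symbols listed in every library. They were chosen by symbol as enzymes of the pathway. All 10 passed the filter on low values, which left 13043 genes for testing. RNA was sequenced from retinal ganglion cells (RGCs), the projection neurons of the retina, of C57BL/6J mice aged 8 weeks. The left eyes had been injected at 6 weeks of age with saline (Control) or with polystyrene microbeads that block aqueous outflow and raise intraocular pressure (IOP), and the microbead-injected eyes were divided after 2 weeks into a Mild IOP and a Moderate IOP group by the size of the rise. The retinas of all 3 groups went through the same immunopanning, which removed other cells on coated plates and captured RGCs with an antibody against Thy1.2, in the presence of actinomycin D to stop new transcription. For each group 1 RNA pool was made and divided over 3 technical replicates, so the 9 libraries came from 3 pools, and every p-value and SD below covers the spread between libraries of a pool and not the spread between animals.

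Glycolysis splits glucose into pyruvate in the cytosol. Hexokinase and phosphofructokinase spend ATP to charge and commit the sugar, aldolase cleaves it, and the enzymes from glyceraldehyde-3-phosphate dehydrogenase to pyruvate kinase return NADH and ATP, after which lactate dehydrogenase can convert pyruvate to lactate and regenerate NAD+. The retina is known for converting much of its glucose to lactate even when oxygen is present, and neurons express particular isozymes such as neuronal enolase (Eno2) and aldolase C (Aldoc).

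Many glycolytic genes are known targets of hypoxia-inducible factor 1, whose binding sites share the core letters ACGTG or GCGTG. Promoter windows from RefSeq (build GRCm38.p6, from 250 bases before to 50 bases after each annotated start) matched all 10 members with 19 windows. The letters ACGTG, read on both strands, were present in 10 of the 19 windows (52.6%) and in at least 1 window of 8 of the 10 members, Eno2 and Ldhb being without a match. The same letters were present in 19.6% of all 32851 windows and in 26.3% of the 1430 windows of tested genes at least as abundant as Hk1, the least abundant member. These shares are per window, and no share per gene was taken to set beside the 8 members. Overlapping windows of Aldoa held the same match, which was counted in each. GCGTG was present in 9 of the 19 windows, against 32.4% of all windows and 55.2% of those of abundant genes. The palindrome CACGTG, which is also the E-box of other factors, holds ACGTG on both strands. It was present in 2 of the 19 member windows, against 7.15% of all windows and 10.6% of those of abundant genes. The 160 bases before 1 start are shown for Ldha, Pgk1, Pkm and Aldoa as examples of members with a match there, while Pfkm, which also held CACGTG there, is not shown. They are given with ACGTG or its reverse complement in capitals.
Ldha chr7:46845644-46845803 (plus strand): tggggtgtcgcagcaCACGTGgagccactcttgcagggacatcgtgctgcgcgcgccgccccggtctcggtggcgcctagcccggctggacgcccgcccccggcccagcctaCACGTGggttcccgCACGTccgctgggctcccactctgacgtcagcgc
Pgk1 chrX:106186940-106187099 (plus strand): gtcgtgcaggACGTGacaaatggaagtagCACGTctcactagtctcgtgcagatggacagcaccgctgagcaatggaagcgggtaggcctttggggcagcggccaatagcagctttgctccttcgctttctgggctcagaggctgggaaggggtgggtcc
Pkm chr9:59657067-59657226 (plus strand): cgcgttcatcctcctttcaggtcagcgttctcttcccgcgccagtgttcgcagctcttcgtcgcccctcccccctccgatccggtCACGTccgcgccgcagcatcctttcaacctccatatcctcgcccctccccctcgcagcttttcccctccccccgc
Aldoa chr7:126799255-126799414 (minus strand): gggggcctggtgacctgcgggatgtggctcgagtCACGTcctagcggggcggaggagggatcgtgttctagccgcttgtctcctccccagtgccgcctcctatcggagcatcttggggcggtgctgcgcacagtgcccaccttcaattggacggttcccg
In Ldha the matches lay in 2 copies of CACGTG and in 1 further copy of the reverse complement, and their first bases were at −145, −48 and −34 from the start. In Pgk1 they were at −150 and −131, in Pkm at −75 and in Aldoa at −126. A match describes these letters only and says nothing of binding in these cells.

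Depth as derived from the cufflinks intervals was 4590000 to 8220000 fragments per library, an estimate that is not the number of reads sequenced. RGC markers were present in every library, and the 12 markers summed to between 1532 and 1619 scaled FPKM in Control, 1126 to 1394 with Mild IOP and 2381 to 2527 with Moderate IOP. Most of each sum came from Sncg (means of 911, 641 and 1389 in the same order) and Nefl (343, 374 and 537). Against Control these 2 were the only RGC markers called higher in Moderate IOP. FPKM is the number of fragments per kilobase of transcript, relative to all mapped fragments of the library, and scaled FPKM were divided by a size factor per library that lay between 0.983 and 1.06. In Moderate against Mild IOP 6 of the 12 RGC markers were called higher. Amacrine markers (8 of 9 tested) summed to 1199 to 1304 in Control, 1248 to 1343 with Mild IOP and 960 to 1020 with Moderate IOP. Of these, 3 (Gad1, Gad2 and Slc6a9) were called lower in Moderate than in Mild IOP. Tfap2a, Tfap2b, Slc32a1 and Th had higher means in Moderate than in Mild IOP, and the list had a median log2 fold-change of 0.04 there. The list of Muller glia and astrocyte markers had 9 of 10 tested, Kcnj10 being under 1 FPKM in every library. It summed to 850 to 895 in Control, 863 to 913 with Mild IOP and 964 to 1015 with Moderate IOP. Of these markers, 3 (Glul, Apoe and Clu) were called higher in Moderate than in Mild IOP. Dkk3, the largest part of each sum (means of 485, 509 and 423 in the same order), and Slc1a3 had lower means in Moderate than in Mild IOP. Rod markers (10 of 10 tested) summed to between 315 and 537, with the highest sums in Control. The 6 tested lens markers summed to 306 to 370 in Control and to at most 5.00 in the other groups, and 2 of 5 endothelial markers were tested and summed to 1.92 to 4.25, Cldn5 and Cdh5 being under 1 FPKM in every library. Because these were bulk samples, fewer cells of a type and less RNA per cell cannot be told apart, and the part of these other cells in the levels of glycolytic genes was not tested.

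Control replicate 3 stood apart for the glycolytic genes, whereas Mild IOP replicate 2 was low for abundant genes in general. In Control replicate 3 all 10 members were below their Control mean, with a median deviation of −0.17 on the log2 scale, whereas the median of 1476 other genes at least as abundant as Hk1 was −0.03. In Mild IOP replicate 2, 6 members were below their group mean with a median of −0.15, and the other abundant genes had a median of −0.14. The derived depth of these libraries was 4660000 and 6120000 fragments. Mild IOP replicate 2 was the lowest of the 9 libraries for Aldoa, Aldoc, Gapdh, Pgk1, Ldha and Ldhb, and the highest for Hk1 and Pfkm.

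The 10 enzymes differed more from each other than between IOP groups. Gapdh had the highest mean over the 9 libraries (4924 scaled FPKM) and Hk1 the lowest (68.8 scaled FPKM). Aldoa followed Gapdh at 4642, then Pkm at 1708, Ldha at 1298, Aldoc at 1113, Pgk1 at 1055, Ldhb at 676, Eno2 at 487 and Pfkm at 141 scaled FPKM. Aldoa and Gapdh were among the 8 highest loci in every library, and Hk1 ranked between 1043 and 1973. In this order, Gapdh and Aldoa were not apart (Gapdh was higher in 6 of 9 libraries), nor were Aldoc and Pgk1 (Aldoc was higher in 7 of 9). Ldha exceeded Aldoc, and Ldhb exceeded Eno2, within each of the 9 libraries, although their ranges over all libraries overlapped. All other neighbours had ranges that did not overlap. Between the highest and the lowest library a single enzyme differed by between 1.14-fold (Eno2 and Pkm) and 1.64-fold (Gapdh). Together the 10 genes took 3.01 ± 0.24% of the summed FPKM of tested genes in Control, 2.83 ± 0.43% with Mild IOP and 2.87 ± 0.11% with Moderate IOP (mean ± SD, n = 3 technical replicates), with a lowest value of 2.33% in Mild IOP replicate 2, and these ranges overlapped between all 3 groups.

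**Figure D1:**
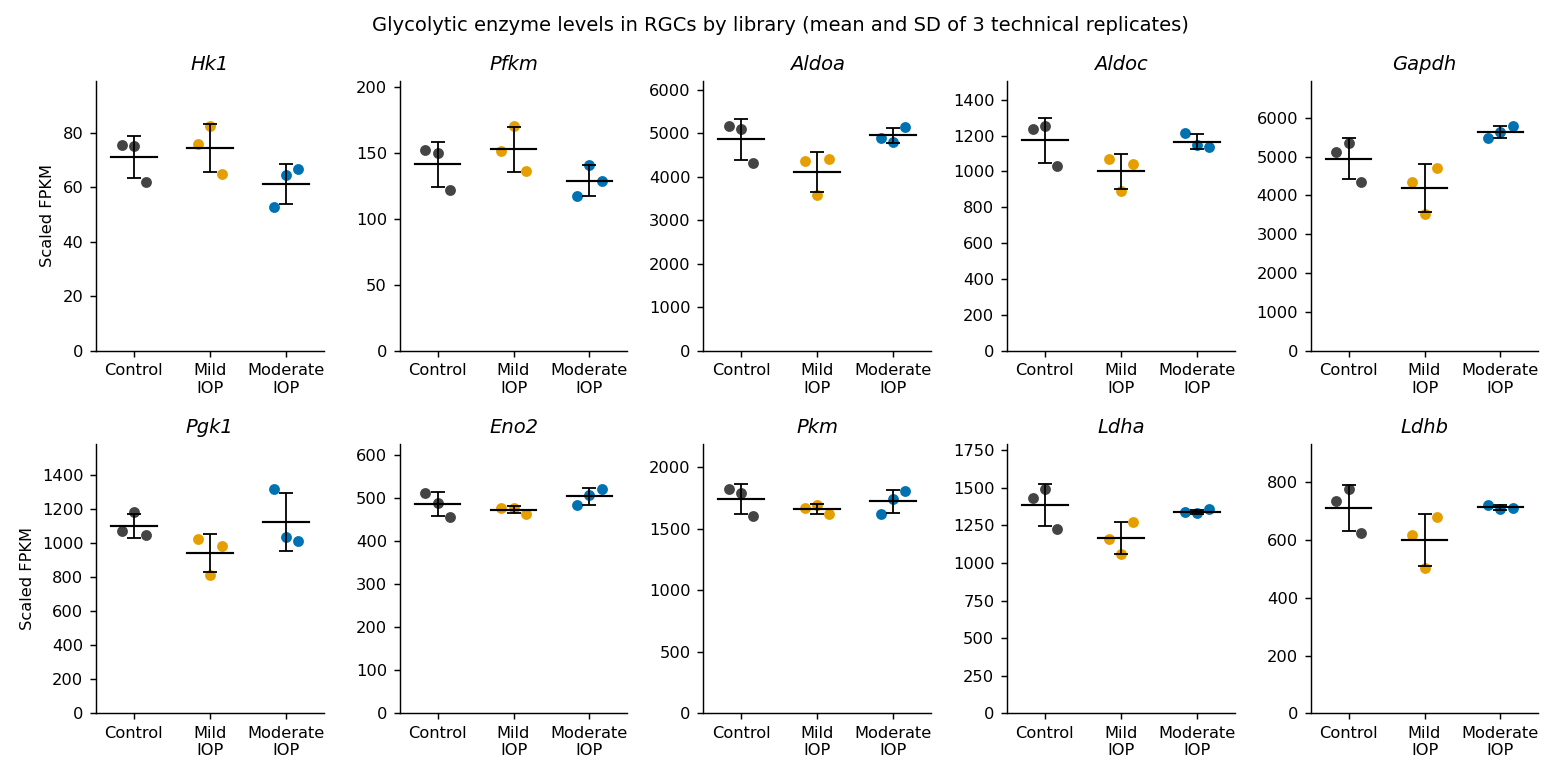
Scaled FPKM (linear axis from 0, a separate scale for each gene) of the 10 glycolytic enzymes in 9 RGC libraries. Points are libraries, horizontal lines are group means and error bars are SD over 3 technical replicates. In Gapdh the 3 Moderate IOP libraries (5472 to 5787) lie above all other libraries, whereas the values of Pkm and Hk1 overlap between the groups.

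The ATP-consuming kinases of the upper pathway had the lowest levels. Hk1, the hexokinase isozyme that binds mitochondria and prevails in brain and retina (chromosome 10, 62268855 to 62379908 of build mm10), measured 75.6, 75.1 and 62.0 scaled FPKM in the 3 Control libraries, 75.7, 82.4 and 64.8 in Mild IOP, and 52.8, 64.5 and 66.5 in Moderate IOP. Its groups overlapped in each pair, and its cufflinks interval had a half-width of 5.55% to 7.23%, the widest of the 10 members. Pfkm, the muscle-type subunit of the committing enzyme phosphofructokinase (chromosome 15, 98092589 to 98132447), measured 152, 149 and 122 scaled FPKM in Control, 151, 170 and 136 with Mild IOP and 117, 140 and 128 with Moderate IOP. The lowest Mild IOP library of Pfkm lay below the highest Moderate IOP library, so these groups overlapped as well. In Moderate IOP against Mild IOP the log2 fold-change was −0.28 ± 0.15 (SE) for Hk1 and −0.24 ± 0.13 for Pfkm, with FDR of 0.31 and 0.33, and these were the only members with a negative value there.

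Both aldolases had their lowest levels in the Mild IOP libraries. Aldoa, the widespread aldolase (chromosome 7, 126795234 to 126800447), measured 5164, 5096 and 4323 scaled FPKM in Control, 4357, 3589 and 4404 with Mild IOP and 4898, 4798 and 5145 with Moderate IOP. Aldoc, the brain-type aldolase (chromosome 11, 78324198 to 78326760), measured 1238, 1254 and 1029 in Control, 1071, 891 and 1040 with Mild IOP and 1213, 1147 and 1135 with Moderate IOP. For both genes every Moderate IOP library was above every Mild IOP library, and Control overlapped with each. The difference between Moderate and Mild IOP was a log2 fold-change of 0.27 ± 0.12 for Aldoa (FDR = 0.23) and 0.22 ± 0.12 for Aldoc (FDR = 0.30), and neither passed the threshold of an FDR below 0.1. With a trend by transcript length over all tested genes removed, the values were 0.03 for Aldoa and 0.26 for Aldoc.

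Gapdh was the single member that passed the test in any comparison. Gapdh encodes the dehydrogenase that oxidises glyceraldehyde-3-phosphate and is widely used as a reference gene (chromosome 6, 125161852 to 125166467). It measured 5128, 5351 and 4354 scaled FPKM in Control, 4354, 3520 and 4707 with Mild IOP and 5472, 5643 and 5787 with Moderate IOP. The Moderate IOP libraries did not overlap with those of either other group. Gapdh was 1.35-fold higher in Moderate IOP than in Mild IOP (log2 fold-change 0.44 ± 0.13, 95% interval 0.14 to 0.73, FDR = 0.084). Against Control the log2 fold-change was −0.24 ± 0.13 in Mild IOP (FDR = 0.60) and 0.19 ± 0.13 in Moderate IOP (FDR = 0.53). The Gapdh call was lost when any 1 of 7 of the 9 libraries was left out (log2 fold-change 0.32 and FDR = 0.15 without Mild IOP replicate 2), the exceptions being Control replicate 3 and Mild IOP replicate 3. It was also lost without scaling, without a filter, with the variance of the 2 compared groups, with the replicate block and without the variance trend. The log2 fold-change of Gapdh was 0.14 (FDR = 0.38) once a trend with transcript length over all tested genes was removed. Reads of the many processed copies of Gapdh, and likewise of Aldoa, Pgk1, Pkm and Ldha, may have been shared with these genes, so their levels are uncertain to that extent.

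None of the remaining enzymes of the lower pathway was called. Pgk1, which makes the first ATP of this phase (chromosome X, 106187100 to 106203699), measured 1070, 1182 and 1050 scaled FPKM in Control, 1026, 815 and 985 with Mild IOP and 1320, 1037 and 1013 with Moderate IOP. All Pgk1 values in Mild IOP were below all Control values, and Moderate IOP, with replicate 1 above its others, overlapped with both groups. Mild IOP against Control gave Pgk1 a log2 fold-change of −0.23 ± 0.13 (FDR = 0.63), and Moderate against Mild IOP gave 0.25 ± 0.13 (FDR = 0.32). Without the length trend the latter log2 fold-change was 0.11. Eno2, the neuronal enolase and a common marker of neurons (chromosome 6, 124760055 to 124769509), measured 512, 487 and 456 in Control, 477, 477 and 463 with Mild IOP and 483, 506 and 521 with Moderate IOP. Pkm, the pyruvate kinase gene of most tissues (chromosome 9, 59656368 to 59679375), measured 1826, 1791 and 1601 in Control, 1671, 1697 and 1618 with Mild IOP and 1620, 1739 and 1809 with Moderate IOP. Eno2 and Pkm had the narrowest ranges of the 10 members, and their log2 fold-changes lay between −0.06 and 0.09 in all 3 comparisons. The M1 and M2 forms of Pkm were not separated, since levels were given per gene.

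The lactate dehydrogenase genes had nearly constant levels in Moderate IOP and lower ones in Mild IOP. Ldha, whose subunit is associated with lactate production (chromosome 7, 46845804 to 46855627), measured 1436, 1495 and 1230 scaled FPKM in Control, 1160, 1060 and 1274 with Mild IOP and 1340, 1331 and 1356 with Moderate IOP. Ldhb, whose subunit is associated with lactate use (chromosome 6, 142490249 to 142507943), measured 734, 778 and 623 in Control, 619, 504 and 681 with Mild IOP and 721, 706 and 713 with Moderate IOP. The Moderate IOP libraries of both genes were above all Mild IOP libraries and inside the range of Control. Ldha had the largest difference of any member in Mild IOP against Control, with a log2 fold-change of −0.25 ± 0.11 (95% interval −0.50 to −0.002, unadjusted p = 0.049, FDR = 0.49 by limma), and Ldhb had −0.25 ± 0.13 (FDR = 0.58). Between Moderate and Mild IOP the values were 0.21 ± 0.11 for Ldha (FDR = 0.32) and 0.26 ± 0.13 for Ldhb (FDR = 0.29). With the length trend removed Ldha had 0.06 and Ldhb turned to −0.10.

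Taken by comparison, no member was called in Mild IOP against Control, where 0.399% of all tested genes were called, and none in Moderate IOP against Control, where 1.84% were. Of the genes at least as abundant as Hk1, 1.68% and 3.57% were called in these comparisons. At an unadjusted limma p under 0.05, 1 member (Ldha) would pass in the first, 0 in the second and 2 (Gapdh and Aldoa) in Moderate IOP against Mild IOP. Of all tested genes 10.2%, 15.3% and 21.8% would pass, and of the abundant genes 32.0%, 23.4% and 54.4%. In Moderate IOP against Mild IOP 10.2% of tested genes were called, and 1 of 10 members was, while 33.9% of the 1486 genes at least as abundant as Hk1 were called higher in Moderate IOP. The members had median log2 fold-changes of −0.23, 0.002 and 0.22 in the 3 comparisons, against 0.01, 0.004 and −0.02 for all tested genes and −0.19, 0.11 and 0.31 for the abundant genes. All 10 members had 95% intervals inside a 1.5-fold change in either direction in Mild IOP against Control and also in Moderate IOP against Control, which 53.1% and 59.6% of the abundant genes had. Between the IOP levels 8 members did, against 40.0% of the abundant genes, and Gapdh (upper bound 1.66-fold) and Hk1 (lower bound 0.66-fold) did not. The Moderate IOP libraries were all above the Mild IOP libraries for 6 members (Aldoa, Aldoc, Gapdh, Eno2, Ldha and Ldhb), as for 48.5% of the abundant genes. Pgk1 was the only member with all Mild IOP libraries below all Control libraries, a pattern that 30.1% of the abundant genes had, and Gapdh the only one with all Moderate IOP libraries above Control, as for 22.2%. Both comparisons with Control share the Control libraries.

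**Figure D2:**
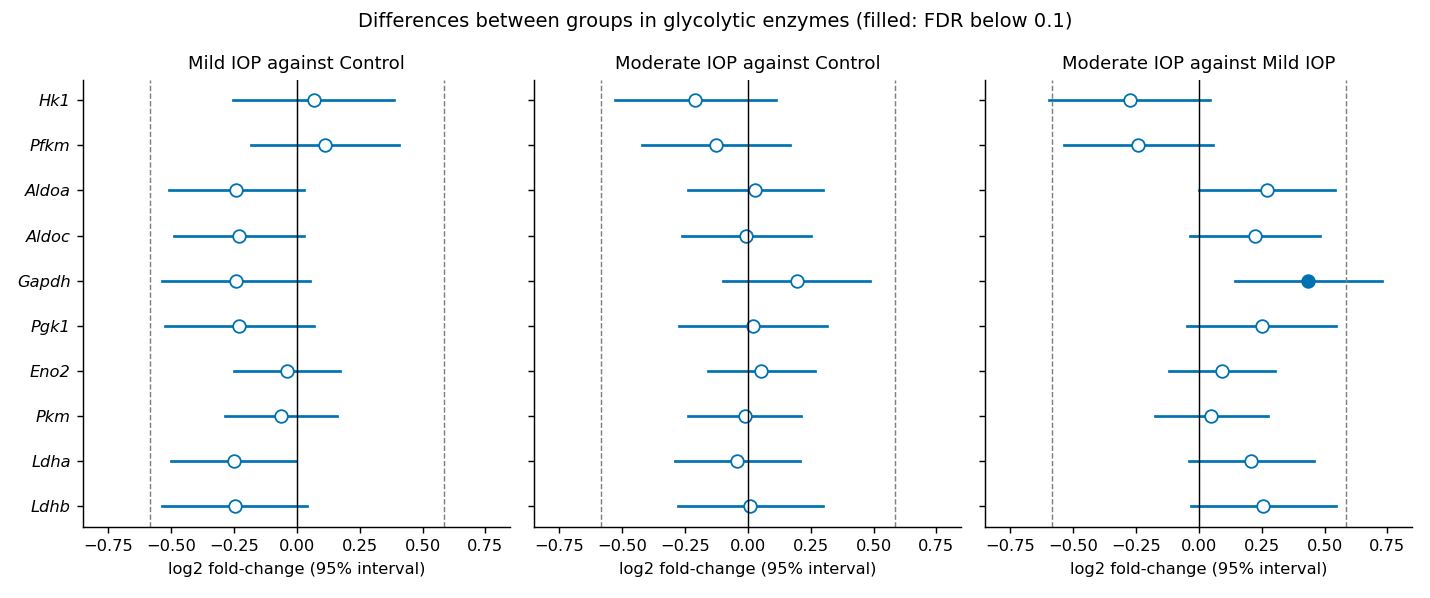
Log2 fold-change of each glycolytic enzyme in the 3 comparisons, with 95% intervals from limma as horizontal lines. Filled points have an FDR below 0.1, and dashed lines mark a 1.5-fold change. In both comparisons with Control every interval lies between the dashed lines, and Gapdh in Moderate IOP against Mild IOP (0.44) is the 1 filled point.

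Transcript length moved with these differences. Abundant genes other than the members had, between Moderate and Mild IOP, a median log2 fold-change of 0.66 for the 614 genes with a longest coding transcript of up to 1500 nt, 0.21 for the 271 genes up to 2000 nt, 0.05 for the 320 genes up to 3000 nt and −0.11 for the 130 genes over 4000 nt. Gapdh (1420 nt) at 0.436 and Ldhb (1304 nt) at 0.257 were below the lower quartile of the shortest class, which was 0.443. Aldoa (1549 nt), Pgk1 (1825 nt) and Ldha (1815 nt) at 0.27, 0.25 and 0.21 lay within the quartiles of their class (0.05 and 0.40). Aldoc (2786 nt), Eno2 (2795 nt) and Pkm (2432 nt) lay within those of theirs (−0.11 and 0.28), whereas Pfkm (2879 nt) at −0.24 was below, and Hk1 (4278 nt) at −0.28 was within the range of the longest class (−0.30 and 0.18). Over the 10 members the correlation of log2 length with the log2 fold-change was r = −0.84 in Moderate IOP against Mild IOP, 0.80 in Mild IOP against Control and −0.71 in Moderate IOP against Control, as a description over genes of the same libraries. With the length trend removed, the median of the members in Moderate IOP against Mild IOP was 0.05 in place of 0.22, and in Mild IOP against Control it was −0.07 in place of −0.23. The trend removed, here and for single genes, was fitted in each library over all tested genes with a known length. It was not that of the abundant genes described above, whose removal was not tried. The longest annotated coding transcript need not be the one expressed, and what lay behind the trend was not tested.

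**Figure D3:**
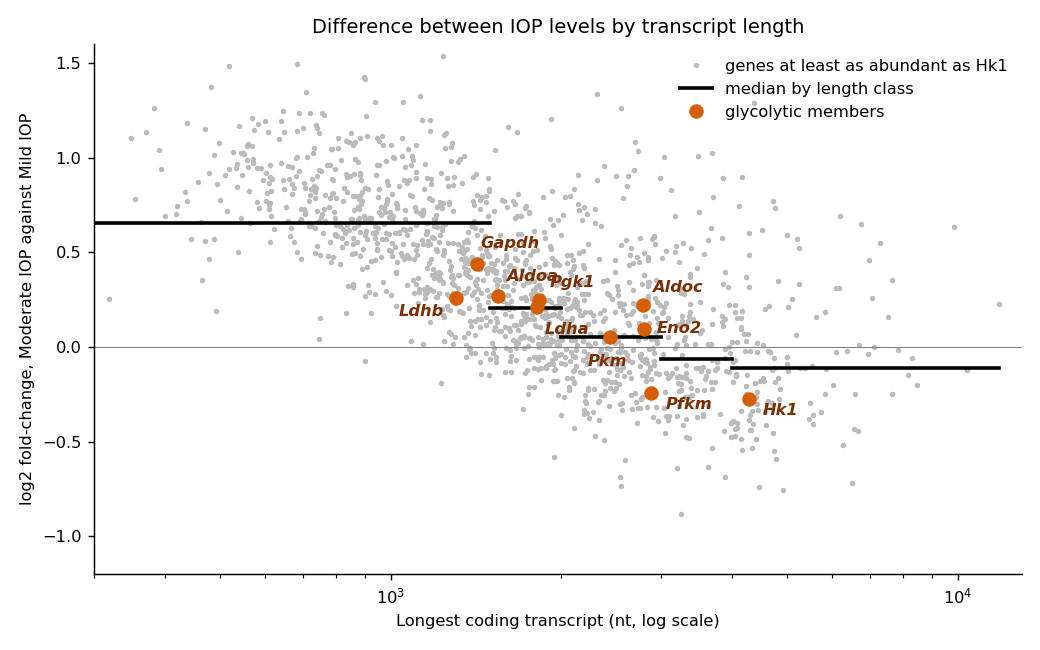
Log2 fold-change in Moderate IOP against Mild IOP (linear axis) by longest coding transcript in nt (log axis) for genes at least as abundant as Hk1. Grey points are other genes, black lines their median per length class and orange points the 10 glycolytic enzymes, and 15 genes fall outside the axes. The 5 members up to 2000 nt lie between 0.21 and 0.44 and those over 2000 nt between −0.28 and 0.22, beside class medians from 0.66 to −0.11.

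At each step of the pathway the members were set beside their isozymes. Hk1 supplied between 93.6% and 97.7% of the summed FPKM of 4 hexokinase genes (Hk1, Hk2, Hk3 and Hkdc1), and Hk2, the hexokinase known for induction by insulin and hypoxia, measured 1.54 to 3.24 scaled FPKM. Pfkm supplied 29.3% to 36.7% of the phosphofructokinase sum, the liver-type Pfkl measuring 138 to 169 and the platelet-type Pfkp 120 to 144 scaled FPKM. Aldoa supplied 80.1% to 81.9% of the aldolase sum and Ldha 65.0% to 67.8% of the lactate dehydrogenase sum. Eno2 supplied 20.0% to 23.8% of enolase, the ubiquitous Eno1 measuring 1521 to 1980 scaled FPKM. Eno1 shares reads with its intronless copy Eno1b (364 to 827 scaled FPKM), and with this copy counted Eno2 supplied 16.6% to 20.0%. Gapdh, Pgk1 and Pkm made up 100.0% of their steps after rounding, since the testis and liver forms were at or near 0.

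None of the 5 isozyme ratios tested had an adjusted p below 0.05 in the comparison of the 3 groups. The Aldoa/Aldoc ratio of FPKM was 4.15 ± 0.07 in Control, 4.11 ± 0.11 with Mild IOP and 4.25 ± 0.25 with Moderate IOP (mean ± SD, n = 3, p = 0.71, adjusted p = 0.71, one-sided exact permutation test over 280 groupings). The Ldha/Ldhb ratio was 1.95 ± 0.03, 1.95 ± 0.13 and 1.88 ± 0.02 (exact p = 0.575, adjusted p = 0.71). The group means of these pairs differed by at most 0.05 on the log2 scale. The Pfkm/Pfkp ratio was 1.05 ± 0.12, 1.22 ± 0.13 and 0.92 ± 0.07, and every Mild IOP library (1.15, 1.37 and 1.14) was above every Moderate IOP library (0.85, 0.98 and 0.95), with an exact p of 0.039 and an adjusted p of 0.20. The Hk1/Hk2 ratio was 33.7 ± 2.44, 45.7 ± 5.48 and 27.9 ± 12.6 (exact p = 0.11, adjusted p = 0.29), the wide spread in Moderate IOP coming from replicate 3 at 42.4 beside 21.3 and 19.9. Without Moderate IOP replicate 3 the Hk1/Hk2 group means differed by 1.14 on the log2 scale in place of 0.80, with an exact adjusted p of 0.018. As the library left out was the outlying one of its group, a clearer separation was bound to follow. This p is therefore no test of the ratio, which also rests on Hk2 at 1.54 to 3.24 scaled FPKM. The Eno2/Eno1 ratio was 0.26 ± 0.01, 0.29 ± 0.03 and 0.28 ± 0.02 (exact p = 0.37, adjusted p = 0.62). With the FPKM of Eno1b added to Eno1, an alternative chosen after seeing the data, this ratio had an exact p of 0.025 and an adjusted p of 0.098, and the adjusted p of Pfkm/Pfkp became 0.098 as well. The smallest p this test can give is 0.0036.

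**Figure D4:**
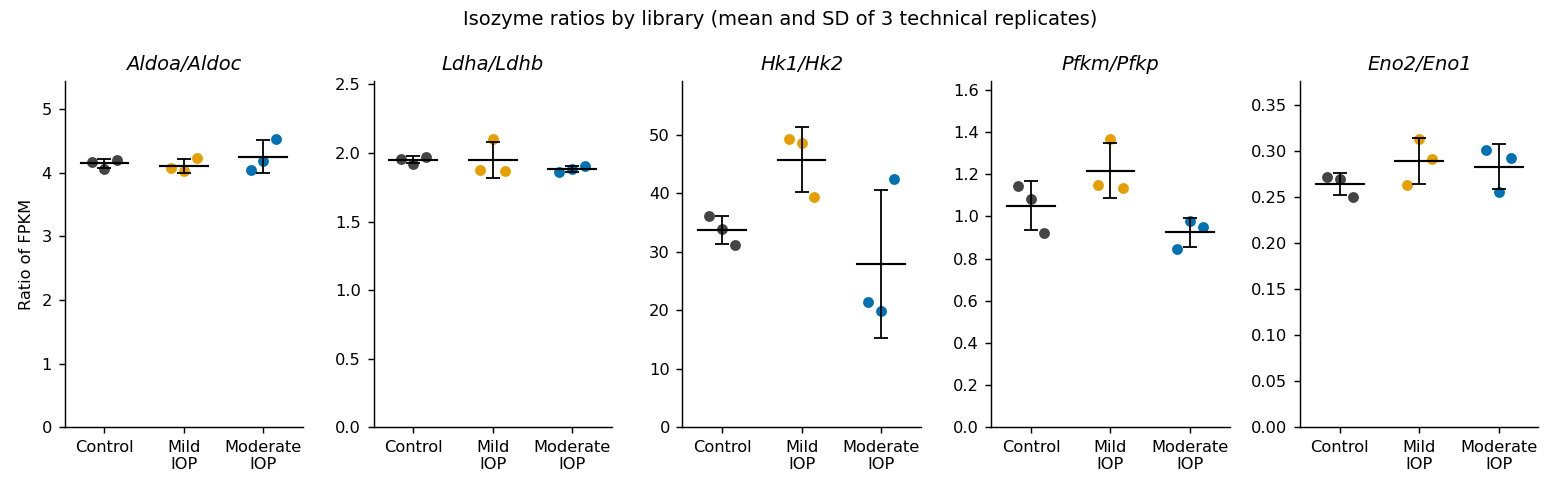
Ratio of FPKM of 5 isozyme pairs (linear axes from 0, a separate scale for each pair) in 9 libraries. Points are libraries, lines are group means and error bars are SD over 3 technical replicates. Aldoa/Aldoc stays between 4.03 and 4.53 and Ldha/Ldhb between 1.86 and 2.10, whereas Hk1/Hk2 spans 19.9 to 49.3.

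The members were also compared with the other genes of glucose metabolism. 8 lists held 100 genes, of which 84 were tested, and none of these was called in Mild IOP against Control, 1 was higher in Moderate IOP than in Control, and 5 were higher and 1 lower in Moderate IOP than in Mild IOP. The share called there was 7.14%, below the 10.2% of all tested genes. The median log2 fold-change of the 84 genes was −0.02, −0.01 and −0.04 in the 3 comparisons, against −0.23, 0.002 and 0.22 for the members. The 84 genes were not matched to the members for abundance or transcript length. All tested genes at least as abundant as Hk1 had medians of −0.19, 0.11 and 0.31. Among the other glycolytic enzymes 0 of 12 tested were called in any comparison. Eno1, the triosephosphate isomerase Tpi1 (1085 to 1718 scaled FPKM) and the phosphoglycerate mutase Pgam1 (888 to 1137 scaled FPKM) were the most abundant of these, and Tpi1 had a log2 fold-change of 0.32 ± 0.13 in Moderate IOP against Mild IOP (FDR = 0.19). The glucose-6-phosphate isomerase Gpi1 measured 414 to 505 scaled FPKM, and its log2 fold-changes lay between −0.06 and 0.04. Of the 5 tested regulators of glycolysis 0 were called, with Bpgm at 25.1 to 49.5, Minpp1 at 24.3 to 36.4 and Pfkfb2 at 3.91 to 9.66 scaled FPKM.

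The 6 list genes called between the IOP levels were Mpc1, Mpc2, Bsg, Taldo1, Higd1a and Hif1a. Both subunits of the mitochondrial pyruvate carrier, which admits pyruvate to mitochondria, were higher in Moderate IOP than in Mild IOP, and they were the 2 called of 13 tested genes of pyruvate entry. Mpc1 measured 237, 166 and 290 scaled FPKM in Mild IOP and 372, 387 and 370 in Moderate IOP (log2 fold-change 0.74 ± 0.18, FDR = 0.036), with 295, 260 and 325 in Control. Mpc2 measured 201, 121 and 173 in Mild IOP and 261, 297 and 253 in Moderate IOP (0.73 ± 0.18, FDR = 0.038), with 183, 226 and 236 in Control. For both carrier genes the Moderate IOP libraries were above all others. Of the genes at least as abundant as Hk1, 48.5% had all Moderate IOP libraries above Mild IOP, and 22.2% had them above Control. Pdhb, a subunit of pyruvate dehydrogenase, measured 104 to 142 scaled FPKM and was not called. Of 9 tested transport genes only Bsg, the chaperone of lactate transporters, was called, with 403, 352 and 408 in Mild IOP and 479, 498 and 505 in Moderate IOP (0.35 ± 0.10, FDR = 0.070). The glucose transporter Slc2a1 measured 43.2 to 61.2 and Emb 32.9 to 55.7 scaled FPKM, neither being called. These higher values in Moderate IOP were no longer called once the length trend was removed (log2 fold-change 0.20 for Mpc1, 0.23 for Mpc2 and 0.10 for Bsg).

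Of 7 tested genes of the pentose phosphate pathway, which branches off after hexokinase, the transaldolase Taldo1 was higher in Moderate IOP than in Mild IOP (0.52 ± 0.14, FDR = 0.061). Without the length trend its log2 fold-change was 0.19 (FDR = 0.39). Tkt (371 to 480 scaled FPKM) and G6pdx (45.2 to 65.3) were not called. None of 10 NADH shuttle genes was called, although Mdh1, the cytosolic malate dehydrogenase, had −0.33 ± 0.11 in Mild IOP against Control (FDR = 0.30), and Mdh2 and Got1 had 0.36 ± 0.13 and 0.25 ± 0.10 in Moderate IOP against Mild IOP (FDR = 0.14 and 0.16). None of 10 glycogen genes was called, with Pgm2 at 91.1 to 135, Gyg at 26.2 to 42.3 and Gbe1 at 15.8 to 33.3 scaled FPKM.

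In the hypoxia-inducible factor system 18 of 21 genes were tested. Hif1a, the oxygen-regulated subunit of the factor, measured 60.0, 59.7 and 80.2 scaled FPKM in Control, 87.7, 88.1 and 82.3 with Mild IOP and 64.7, 56.2 and 66.7 with Moderate IOP. Its Mild IOP libraries were above all others. Of the genes at least as abundant as Hk1, 3.30% had all Mild IOP libraries above Control, and 9.89% had all Moderate IOP libraries below Mild IOP. Hif1a was lower in Moderate IOP than in Mild IOP (−0.46 ± 0.14, FDR = 0.087). The length-corrected value was −0.30 (FDR = 0.27). Higd1a, a mitochondrial protein induced by hypoxia, was higher in Moderate IOP than in Mild IOP (0.54 ± 0.17, FDR = 0.091), and without the length trend it had 0.50 (FDR = 0.15). Adm, the peptide adrenomedullin, measured 0.00, 0.098 and 0.00 scaled FPKM in Control and 2.86, 1.39 and 2.64 in Moderate IOP, a difference of 1.64 ± 0.35 on the log2(scaled FPKM + 1) scale (FDR = 0.060) at a very low level. The Adm call was lost when Control replicate 1 (FDR = 0.18), Control replicate 2, Moderate IOP replicate 1 or Moderate IOP replicate 3 was left out. It was also lost with the replicate block, and a filter at a mean of 5 removed Adm. Bnip3 (274 to 360 scaled FPKM) and Bnip3l (88.5 to 114), both mitophagy receptors, were not called in any comparison.

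The common pattern of the members was taken as the mean of their standardised log2 levels over the 9 libraries. 8 members had a correlation of between 0.43 (Pgk1) and 0.88 (Aldoa) with the mean of the other 9 members, whereas Hk1 and Pfkm had −0.14 and −0.17. The 5 other genes most like the common pattern were Hras (a small GTPase, r = 0.99), Adh5 (which clears formaldehyde, 0.96), Rnf5 (a ubiquitin ligase of the endoplasmic reticulum, 0.93), Vax2 (a homeobox factor of the ventral retina, 0.93) and Cd3eap (a subunit of RNA polymerase I, 0.92), each over 9 libraries that the genes share. Hras measured 70.4, 75.3 and 47.3 scaled FPKM in Control, 55.2, 44.9 and 52.2 with Mild IOP and 60.1, 61.2 and 63.6 with Moderate IOP. Control replicate 3 was the lowest Control library of Hras, as in all 10 members, and Mild IOP replicate 2 was the lowest of all, as in 6 members. The 5 genes were picked by this correlation from the 13043 tested genes apart from the members. Their likeness to the members therefore followed from the choice, and no background for r was taken.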

How the data were processed

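RNA of each group was pooled, split into 3 technical replicates and made into SMART-seq v4 and Nextera XT libraries for paired-end sequencing on a HiSeq2500. Alignment to mm10 was done by the authors with bowtie2 (the submitters' processing notes name TopHat2), and FPKM were estimated with cufflinks. The deposited values were FPKM per locus in each library. Loci that share a symbol were added together (each member had 1 locus), and 2 symbols with a failed estimate were left out. Depth was derived from the cufflinks intervals of genes with transcripts of at least 2000 nt (GENCODE M21) and at least 100 fragments.

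Median-of-ratios factors were used for scaling, and log2 was taken with a pseudocount of 1. Genes whose scaled FPKM averaged 0.5 or more (13043) entered a limma 3.58.1 fit in R 4.3.3, using all 9 libraries, with a trend of variance and Benjamini-Hochberg adjustment within each comparison. A fold-change is therefore on the log2(scaled FPKM + 1) scale. The fit and the exact permutation test were tested on simulated data. Figures were made with matplotlib 3.10.9 in Python 3.11.15.

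The members and all gene lists were chosen with earlier results of these data known. Named were every member, their isozymes, the 3 most abundant tested genes of each pathway list, and the 5 genes most like the members. List genes that were called were named after their values were seen. 99 of 100 pathway symbols were matched. Alternatives for scaling, pseudocount, filter, variance, replicate block, length trend, loci and single libraries were tried. Some single genes of the pathway lists are not reported here.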

Additional observations from a re-analysis of the deposited data

How the results depend on the processing

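The count of members called in Moderate IOP against Mild IOP was 1 (Gapdh) with upper-quartile scaling, a pseudocount of 0.1, a filter at a mean of 5, the largest locus per symbol or failed estimates kept. It was 0 without scaling, without a filter, with the variance of the 2 compared groups, with the replicate block, without the variance trend or with the length trend removed, and between 0 and 1 when single libraries were left out, where it was 1 without Control replicate 3 or without Mild IOP replicate 3. The FDR of Gapdh was 0.15 without scaling, 0.28 without a filter, 0.11 with the variance of 2 groups, 0.16 with the replicate block and 0.19 without the variance trend, and apart from the length correction the cause was not tested. In both comparisons with Control the count of members was 0 under every alternative run. Of 600 member log2 fold-changes under alternatives, 28 changed sign, none of them called, and no called value reversed.

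Over all tested genes, calls in Mild IOP against Control numbered 52 and ranged from 15 (without Mild IOP replicate 2, or without the variance trend) to 183 (without Mild IOP replicate 3), with 19 after the length correction and 25 with the replicate block. In Moderate IOP against Control they numbered 240 and ranged from 61 (without Control replicate 1) to 301 (length trend removed). In Moderate IOP against Mild IOP they numbered 1324 and ranged from 490 (length trend removed) to 1527 (filter at 5), with 519 without Mild IOP replicate 2. The 6 other pathway genes called there ranged from 0 (length trend removed, or no variance trend) to 7, with 1 without Moderate IOP replicate 2. Same-numbered libraries had correlations of deviations between −0.005 and 0.044, so the numbers did not pair the samples, and the replicate block gave 25, 135 and 1120 calls.

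Leaving out single libraries moved the Hk1/Hk2 difference between group means from 0.60 to 1.14 on the log2 scale, and the adjusted p of the exact test was 0.018 (without Moderate IOP replicate 3) to 0.375. Moderate IOP replicate 3 was the outlying library of its group for this ratio. With Eno1b added to Eno1, an alternative chosen after seeing the data, the Eno2/Eno1 difference was 0.16 (exact permutation test, adjusted p = 0.098), and the adjusted p of Pfkm/Pfkp went from 0.20 to 0.098. In every alternative run the other ratios kept an adjusted p above 0.05 and the share of summed FPKM stayed within 1 SD. Technical replicates of 3 pools limit what these values say about animals.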
